A study of Mus musculus with 6 samples.

Results

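The thioredoxin, sulfiredoxin and peroxiredoxin system was followed through 10 genes, Txn1, Txnrd1, Srxn1, Txnip and Prdx1 to Prdx6, in prefrontal cortex of Nrf2 knockout and wild type mice, among 17972 genes with a tested probe. Probes were taken as theirs when the array named the gene or one of its RefSeq transcripts, which gave 27 probes of the 150305 on the array that were not controls, and 26 of these were tested. Each of the 10 genes had at least 1 tested probe. RNA was measured on 1 array per sample, with 3 samples from Nrf2 knockout and 3 from wild type mice, all male, of the outbred ICR stock and 3 to 4 months old. Nrf2 is the protein of the gene Nfe2l2. No other allele or agent is named. Which part of the gene was deleted is not stated, nor is it stated that the samples came from separate mice, so the p-values rest on a sample-to-sample spread that could be technical.

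Thioredoxin is a small protein that reduces disulphide bonds in other proteins and is itself reduced by thioredoxin reductase with electrons from NADPH. Peroxiredoxins are abundant enzymes that break down hydrogen peroxide and other peroxides through a reactive cysteine. Most of them draw on thioredoxin, and sulfiredoxin repairs the typical 2-cysteine kind when that cysteine has been overoxidised. Nrf2 is a transcription factor that binds antioxidant response elements, and Txn1, Txnrd1, Srxn1 and Prdx1 are textbook examples of genes it can induce.

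None of the 10 genes passed the test in the Nrf2 knockout cortex. The largest difference in size was 0.28 on the log2 scale. Txn1, the gene of cytosolic thioredoxin, had 1 tested probe, which lay lower in every knockout sample than in any wild type sample. The same held for 1 of the 2 tested probes of Prdx3 and of Prdx4. These were 3 of the 26 tested probes, against 10.4% of all probes. The other tested probes of Prdx3 and Prdx4 averaged higher in the knockout, at 0.091 and 0.14. On the higher side, 2 of the 26 did not overlap, both of Prdx2, against 11.1% of all probes. All 4 Srxn1 probes, all 4 Prdx2 probes and all 4 Prdx6 probes averaged higher in the knockout, without passing the test. With slide as a block, the differences ran from -0.038 to 0.0048 for Srxn1, from 0.0019 to 0.11 for Prdx2 and from -0.015 to 0.19 for Prdx6.

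Promoter sequences are shown first because these genes are studied as Nrf2 targets. The 250 bases before the annotated start are printed for the 3 genes with a match to the letters TGACNNNGC, a core of the antioxidant response element, and for Txn1, which has none. Sequences are RefSeq's on GRCm38.p6, 5′ to 3′ on the strand of the gene, and capitals mark every match to the looser form TGANNNNGC on either strand. That form holds the first motif within it.
Srxn1, chr2:152105274-152105523, plus strand: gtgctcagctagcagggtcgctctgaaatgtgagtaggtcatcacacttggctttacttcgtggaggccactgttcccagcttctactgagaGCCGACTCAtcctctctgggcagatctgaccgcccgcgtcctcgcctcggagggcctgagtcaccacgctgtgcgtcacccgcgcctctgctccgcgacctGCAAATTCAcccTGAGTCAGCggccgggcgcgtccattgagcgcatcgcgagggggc
Prdx1, chr4:116685349-116685598, plus strand: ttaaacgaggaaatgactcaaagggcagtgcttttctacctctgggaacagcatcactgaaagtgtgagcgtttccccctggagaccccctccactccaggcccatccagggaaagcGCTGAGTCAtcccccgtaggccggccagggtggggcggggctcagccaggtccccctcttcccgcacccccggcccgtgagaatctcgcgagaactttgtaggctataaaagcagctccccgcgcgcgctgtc
Txnrd1, second of 3 starts, chr10:82858956-82859205, plus strand: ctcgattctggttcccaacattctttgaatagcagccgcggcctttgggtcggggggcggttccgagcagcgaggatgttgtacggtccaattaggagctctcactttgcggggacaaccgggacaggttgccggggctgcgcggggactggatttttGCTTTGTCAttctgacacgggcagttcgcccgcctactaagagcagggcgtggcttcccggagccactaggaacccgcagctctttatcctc
Txn1, chr4:57956412-57956661, minus strand: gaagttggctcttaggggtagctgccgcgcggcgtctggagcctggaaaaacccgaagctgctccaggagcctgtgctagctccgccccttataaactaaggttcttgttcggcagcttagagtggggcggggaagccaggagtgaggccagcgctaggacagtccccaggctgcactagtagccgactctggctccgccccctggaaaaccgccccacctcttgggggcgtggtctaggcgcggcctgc

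Windows from 250 bases before to 50 bases after the start were found for 9 of the 10 genes, with 11 windows in all, and were searched on both strands. TGACNNNGC occurred in 3 of these windows, 1 each of Srxn1, Prdx1 and Txnrd1, and in 12.4% of all 32851 promoter windows in the same table. The Srxn1 match to it lies after the start, at 28 bases, and is outside the printed stretch. TGANNNNGC occurred in 5 of the 11 windows, of Srxn1, Prdx1, Txnrd1 and Prdx5, against 41.3% of all windows. The E-box CACGTG occurred in 1 of the 11, that of Prdx4, against 7.15% of all windows, and was not found in the window of Txnip. A match is a run of letters and not a measured binding site.

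Along principal component 1 (52.2% of the variance), knockouts 2 and 3, which share slide 2, lay at 100.7 and 99.5. Knockout 1 lay at -25.8 and the wild type arrays, which share slide 1 with it, lay between -70.7 and -49.0. Slide 2 holds no wild type array, so slide and sample cannot be told apart there. Median local backgrounds were 18 and 19 on slide 2 and 23 to 24 on slide 1. Of 105930 probes tested, 10 (0.00944%) passed an adjusted p of 0.05 in limma, while 15.1% had an unadjusted p under 0.05. Nfe2l2 itself was far lower in the knockout at 3 of its 4 probes. The one well above background on all 6 arrays measured -3.74, -3.79 and -3.46 in the knockout samples, against 0.49, 0.39 and 0.35 in wild type (log2 difference -4.08, SE 0.12, limma adjusted p = 6.14e-04). The other 2 failed to rise well above background in all 3 knockout samples and were at least 65.6-fold and 81.5-fold lower. The fourth, for a non-coding variant, measured -0.35 (SE 0.19, limma adjusted p = 0.393). The summed signal of 7 neuron markers was 1055 to 1108 times the 75th percentile of the array in the knockout and 1064 to 1128 times in wild type. The corresponding sums were 144 to 162 in the knockout and 151 to 168 in wild type for microglia, 211 to 252 and 201 to 256 for oligodendrocytes, 32.0 to 35.3 and 32.2 to 36.2 for endothelium, and 1.28 to 2.16 and 1.52 to 1.54 for choroid plexus. The sums without overlap were those of meninges, at 24.3 to 29.5 in the knockout and 29.6 to 44.2 in wild type, and of red cells, given beside Prdx2. Striatal markers summed to 52.0 to 63.9 in the knockout and 59.5 to 64.2 in wild type. Genes lower in the knockout without overlap were 3 of 6 for striatum and 2 of 6 for meninges, and 0 were higher without overlap. Over all genes at 1 probe each, 19.4% did not overlap in either direction. All 6 meningeal genes lay below 0. Limma called 0 genes in each of these lists. The number at an unadjusted p under 0.05 was 5 of 9 for red cells and 0 to 3 for the others.

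Levels below are log2 signals from which the array's 75th percentile was subtracted. They can be compared between samples for 1 probe, and not between probes. Probes of a gene are lettered from the brightest to the dimmest, and all 26 tested probes were well above background on all 6 arrays. In bulk tissue, fewer cells of a type and less RNA per cell cannot be told apart.

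Across the 26 tested probes, limma called 0, against 0.00944% of all probes. At an unadjusted p under 0.05 there were 2 (7.69%), Txn1 probe A and Prdx6 probe D, against 15.1% of all probes. The adjusted p-values ran from 0.311 to 0.962. Knockout and wild type did not overlap at 5 of the 26 probes (19.2%), 2 higher and 3 lower in the knockout, against 21.6% of all probes, 11.1% higher and 10.4% lower. The median log2 difference was 0.098 over the 26 probes and 0.028 over all tested probes, and 19 of the 26 lay above 0 (73.1%, against 54.9% of all probes). The median size of the difference without its sign was 0.14 for these probes and 0.16 for all. The 95% intervals of the 26 differences reached from -0.51 to 0.58.

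Many of these probes differed between knockout 1, on slide 1, and knockouts 2 and 3, on slide 2. Slide and sample cannot be told apart in this contrast. Knockouts 2 and 3 both measured above knockout 1 at 20 of the 26 probes (76.9%), against 44.8% of all tested probes. Knockout 1 lay within the wild type range at 17 of the 26 (65.4%, against 48.8% of all probes). At 10 of the 26 (38.5%, against 21.4% of all) knockout 1 lay within that range while knockouts 2 and 3 both lay outside it on the same side. With slide as a block, which rests on knockout 1 alone, 10 probes lay above 0 and 16 below, the median was -0.019, limma called 0, and 0 had an unadjusted p under 0.05. The SEs then spanned 0.11 to 0.27, against 0.084 to 0.19 without the block, and were smaller with it at 3 probes, Srxn1 A, Srxn1 D and Prdx1 A. With the block the 95% intervals reached from -0.76 to 0.61.

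**Figure D1:**
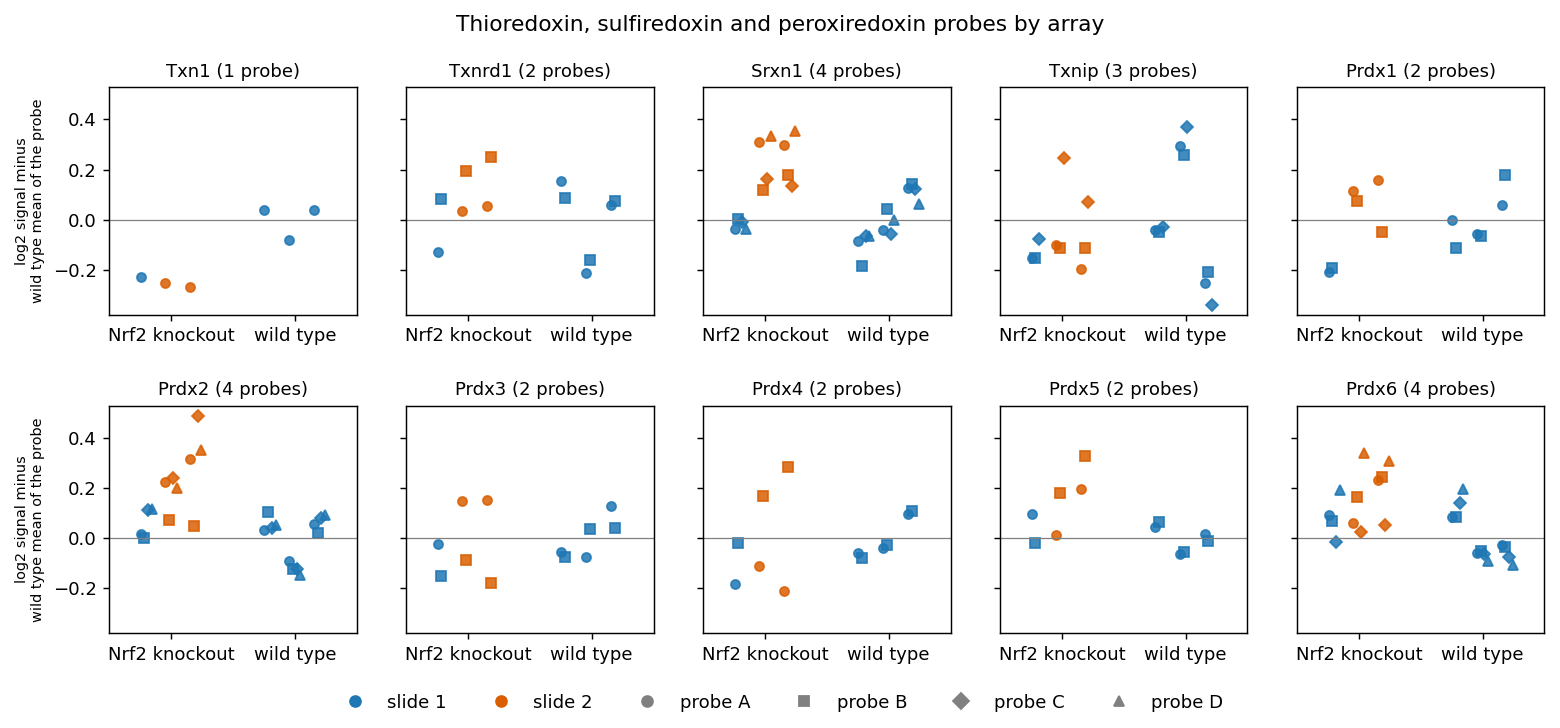
Log2 signal of each tested probe on each array minus that probe's wild type mean, with 1 panel per gene, knockout samples left of wild type samples, marker shape for the probe and colour for the slide. Txn1 is lower in all 3 knockout samples, while the Srxn1 points of the knockout sample on slide 1 lie among the wild type points and those on slide 2 lie mostly above them.

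Txn1 encodes the cytosolic thioredoxin that passes electrons to peroxiredoxins. Its probe A, at chr4:57956677-57956736 on build mm9, measured 4.81, 4.79 and 4.77 in the knockout samples, against 5.08, 4.96 and 5.08 in wild type. All 3 knockout samples were below all wild type samples. The wild type arrays all lay on slide 1, so within a slide only knockout 1 could be compared with them. The log2 difference was -0.25 (SE 0.084, 95% interval -0.45 to -0.047), 0.841-fold, and it did not pass the test (limma adjusted p = 0.311, with 0.107 to 0.930 over the other settings tried). It was -0.23 (SE 0.11) with slide as a block, close to its size over all 6 arrays. Probe B was not tested, since its signal cleared the background in 0 of 3 knockout arrays and 1 of 3 wild type arrays. The value for Txn1 therefore rests on 1 probe.

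Txnrd1 encodes the cytosolic thioredoxin reductase, a selenoprotein. Probe A measured 3.45, 3.62 and 3.64 in the knockout samples, against 3.74, 3.37 and 3.64 in wild type, so the groups overlapped. Its difference was -0.013 (SE 0.12). Probe B, at chr10:82360230-82360289 on mm9 and annotated to all 4 RefSeq transcripts on the array, measured 3.40, 3.52 and 3.57 in the knockout samples, against 3.41, 3.16 and 3.40 in wild type. Knockout 1 lay inside the wild type range here and the others above it. The difference was 0.18 (SE 0.11, limma adjusted p = 0.429), and 0.082 (SE 0.14) with slide as a block.

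Circular RNAs, closed loops made by back-splicing of exons, were also measured at these loci. Their names hold positions whose build the files do not state. Among 37852 such probes, coding genes of GRCm38 held 97.3% of the positions as given and 35.9% of them when moved by 1 Mb, so positions were read as GRCm38. Inside the 10 genes lay 7, of which 6 were tested, and limma called 0 of these. At an unadjusted p under 0.05 there was 1 of the 6, against 15.1% of all probes. The one inside Txnip, on its opposite strand, cleared the background in 0 of 3 knockout arrays and 1 of 3 wild type arrays.

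The one with the largest difference was a Txnrd1 circle at chr10:82877266-82879865 on the plus strand. It measured 1.06, 1.05 and 1.42 in the knockout samples, against 0.87, 0.48 and 0.76 in wild type. The groups did not overlap, as at 11.1% of all probes on the higher side, and knockout 1 was above the wild type range on its own slide. The difference was 0.47 (SE 0.15, limma adjusted p = 0.309), and 0.36 with slide as a block (limma adjusted p = 0.927). A circle with the same first base and a later end, at 82881948, measured 0.11 (SE 0.13), and another, at 82883914 to 82885293, measured 0.33 (SE 0.16), both with overlapping groups. The probes A and B of linear Txnrd1 gave -0.013 and 0.18. The circles of Prdx6 (0.063 and 0.24) and of Prdx4 (0.25) had overlapping groups and adjusted p-values of 0.403 to 0.702 in limma.

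Srxn1 encodes sulfiredoxin, which uses ATP to rescue overoxidised peroxiredoxins. Its 4 probes differed by 0.096 to 0.22, and none passed the test (lowest limma adjusted p = 0.422). Probe D, with the largest difference of the 4, measured -0.91, -0.54 and -0.52 in the knockout samples, against -0.94, -0.87 and -0.81 in wild type. Knockout 1 lay inside the wild type range and knockouts 2 and 3 above it. Probe A, at chr2:151936919-151936978 on mm9, measured 4.07, 4.41 and 4.40 in the knockout samples, against 4.02, 4.06 and 4.23 in wild type, in the same arrangement. Probes B and C gave 0.10 (SE 0.12) and 0.096 (SE 0.10), and they share 13 bases, so they are not independent readings. With slide as a block the 4 probes gave -0.038 to 0.0048.

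Txnip encodes an alpha-arrestin that binds thioredoxin and inhibits it, and its RNA responds to glucose and, in other tissues, to glucocorticoids. Probe A measured 2.77, 2.82 and 2.72 in the knockout samples, against 2.88, 3.21 and 2.67 in wild type. The knockout samples lay close together within the wild type range, in which wild type 2 was highest. The difference was -0.15 (SE 0.15), with -0.13 (SE 0.13) at probe B and 0.080 (SE 0.19) at probe C (lowest limma adjusted p = 0.605). Wild type 2 was also the highest of the wild type samples at probes B and C, and without it the differences at probes A, B and C were -0.0026, 0.0019 and 0.26. Among 11 genes chosen for their response to glucocorticoids, 4 lay above 0 and 7 below, and limma called 0. At an unadjusted p under 0.05 there was 1 of the 11, Fkbp5 (12.4% of all genes). Fkbp5, a chaperone of the glucocorticoid receptor, measured -0.78, -0.80 and -0.65 in the knockout samples, against -0.53, -0.066 and -0.45 in wild type (log2 difference -0.40, SE 0.14, limma adjusted p = 0.314). Of the wild type samples, wild type 2 was the highest for Fkbp5, Mt1, Mt2, Sgk1 and Zbtb16. It was the lowest for Per1, Tsc22d3, Ddit4 and Errfi1, and the middle one for Nfkbia and Cdkn1a. Whether any of these genes bears on Txnip was not tested.

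Prdx1 and Prdx2 encode the cytosolic 2-cysteine peroxiredoxins. Prdx1 probe A measured 4.09, 4.41 and 4.46 in the knockout samples, against 4.30, 4.24 and 4.36 in wild type. Knockout 1 was the lowest of the 6 and knockouts 2 and 3 were the highest. The difference was 0.022 (SE 0.12) over all arrays, and -0.21 (SE 0.11, limma adjusted p = 0.904) with slide as a block. Probe B gave -0.055 (SE 0.12) and -0.19 (SE 0.15) by the same fits.

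Probes of different genes of the set share short runs of sequence. The longest run shared between probes of different genes of the set was 14 bases, between Prdx1 probe A and Prdx6 probe B, and the next longest was 9. The deposited 60-base probes are printed 5′ to 3′ with the shared run in capitals.
Prdx1 probe A: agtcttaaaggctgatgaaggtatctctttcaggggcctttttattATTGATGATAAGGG
Prdx6 probe B: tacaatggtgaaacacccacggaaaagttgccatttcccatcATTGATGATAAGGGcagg

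Prdx2, the most abundant peroxiredoxin of red blood cells and also a neuronal one, averaged higher in the knockout at all 4 probes. Probe C, at chr8:87494387-87494446 on mm9, measured 3.82, 3.95 and 4.19 in the knockout samples, against 3.75, 3.59 and 3.79 in wild type. Every knockout sample was above every wild type sample, knockout 1 by the narrowest gap. The difference was 0.28 (SE 0.13, 95% interval -0.021 to 0.58, limma adjusted p = 0.345), and 0.11 (SE 0.15) with slide as a block. Probe D, which also did not overlap, gave 0.22 (SE 0.11), and 0.11 with the block. The brighter probes A and B overlapped between the groups and gave 0.19 (SE 0.11) and 0.041 (SE 0.095), and 0.015 and 0.0019 with the block, so the probes of this gene differ in the size of the difference.

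Red cell genes averaged higher in the knockout as well. Of 9 tested red cell genes, from a list of 10, mostly globins that share sequence with each other, 7 lay above 0 and 6 did not overlap between the groups, all higher in the knockout (66.7%, against 19.4% of all genes in either direction). Limma called 0 (lowest adjusted p = 0.307), with 5 at an unadjusted p under 0.05, against 12.4% of all genes. Their summed signal was 1105, 1264 and 1240 times the 75th percentile in the knockout samples, against 821, 1064 and 826 times in wild type. Alas2, the heme synthesis enzyme of red cell precursors, measured 2.30, 2.43 and 2.40 in the knockout samples, against 1.57, 2.23 and 1.61 in wild type. Slc4a1, the red cell anion exchanger, gave -0.084 (SE 0.10). The part of red cell RNA in the Prdx2 values was not tested.

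**Figure D2:**
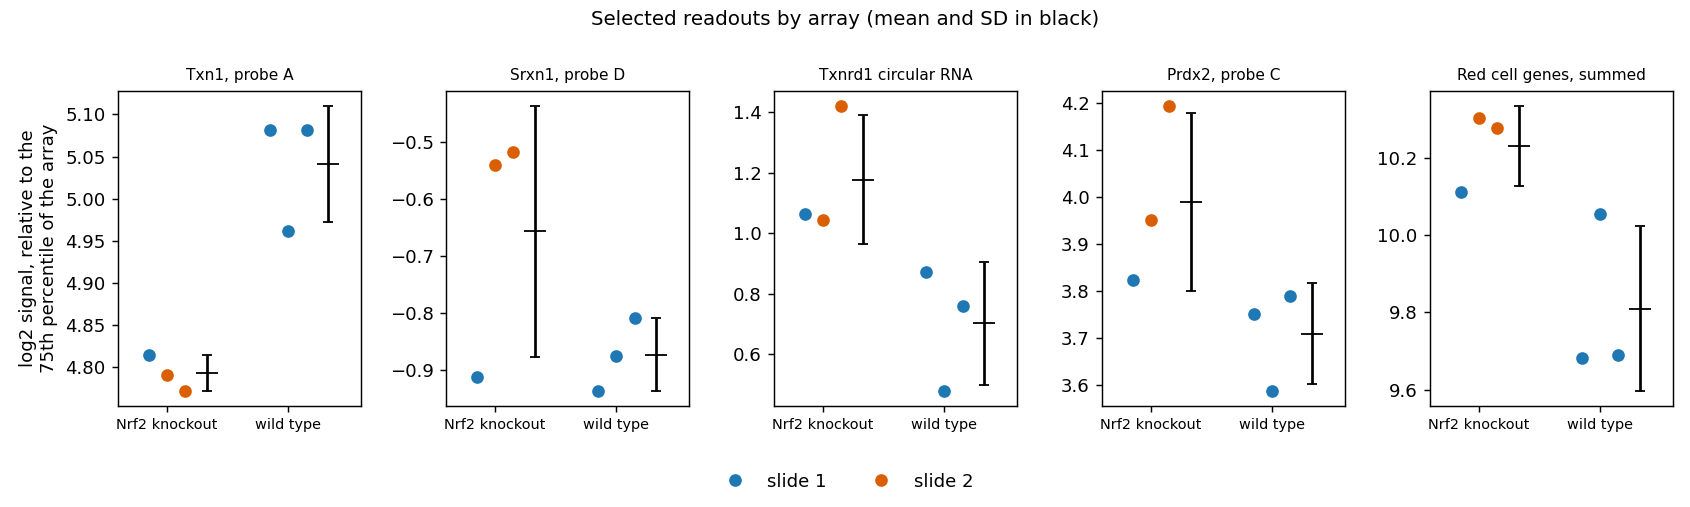
Values on each array of Txn1 probe A, Srxn1 probe D, the Txnrd1 circular RNA without overlap, Prdx2 probe C and the summed red cell genes, on a log2 scale with a separate axis range for each panel, knockout left of wild type and colour for the slide. Black marks give the mean and SD of 3 samples, and Srxn1 is the one in which the knockout sample of slide 1 lies within the wild type range.

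Prdx3 and Prdx4 encode the peroxiredoxins of the mitochondrion and of the secretory pathway, and for both genes the probes disagreed in direction. Prdx3 probe B measured 3.34, 3.40 and 3.31 in the knockout samples, against 3.41, 3.52 and 3.53 in wild type, with no overlap (difference -0.14, SE 0.086, limma adjusted p = 0.433). Prdx3 probe A gave 0.091 (SE 0.10), with overlap. Prdx4 probe A measured 2.44, 2.51 and 2.41 in the knockout samples, against 2.57, 2.58 and 2.72 in wild type, again with no overlap (difference -0.17, SE 0.089, limma adjusted p = 0.386). Prdx4 probe B, at chrX:151764882-151764941 on mm9, gave 0.14 (SE 0.11), with overlap. The lower probes kept their size with slide as a block, at -0.15 for Prdx3 and -0.18 for Prdx4, while the others gave -0.024 and -0.017.

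Prdx5, an atypical 2-cysteine peroxiredoxin found in several compartments, had overlapping groups at both probes. Probe A measured 6.58, 6.49 and 6.68 in the knockout samples, against 6.52, 6.42 and 6.50 in wild type, a difference of 0.10 (SE 0.091). Probe B gave 0.16 (SE 0.11, limma adjusted p = 0.476), and -0.020 with slide as a block.

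Prdx6, the 1-cysteine peroxiredoxin, relies on glutathione in place of thioredoxin and is prominent in astrocytes. Its brightest probe, A, measured 5.33, 5.30 and 5.47 in the knockout samples, against 5.33, 5.18 and 5.21 in wild type. The groups overlapped through wild type 1, and the difference was 0.13 (SE 0.094). Probe D, the dimmest of the 4, measured -2.46, -2.31 and -2.34 in the knockout samples, against -2.45, -2.74 and -2.76 in wild type. Knockout 1 fell just below wild type 1, and the difference was 0.28 (SE 0.11, limma adjusted p = 0.33). With the normexp background correction it was 0.13 after quantile normalization and 0.14 after scaling to the 75th percentile. The differences at the middle pair, B and C, were 0.16 (SE 0.093) and 0.021 (SE 0.096). Probe C is also annotated to a transcript of Prdx6b, a close copy of the gene, so signal from the pair cannot be told apart there. The summed signal of 7 astrocyte markers was 457 to 469 in the knockout and 461 to 472 in wild type. Of the 7, 3 lay above 0 and 4 below, and limma called 0. The largest difference was that of Gfap, at -0.49 (SE 0.24, limma adjusted p = 0.362), with overlapping groups. Groups did not overlap at 1 of the 7, Slc1a2, which was lower in the knockout, against 19.4% of all genes in either direction.

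**Figure D3:**
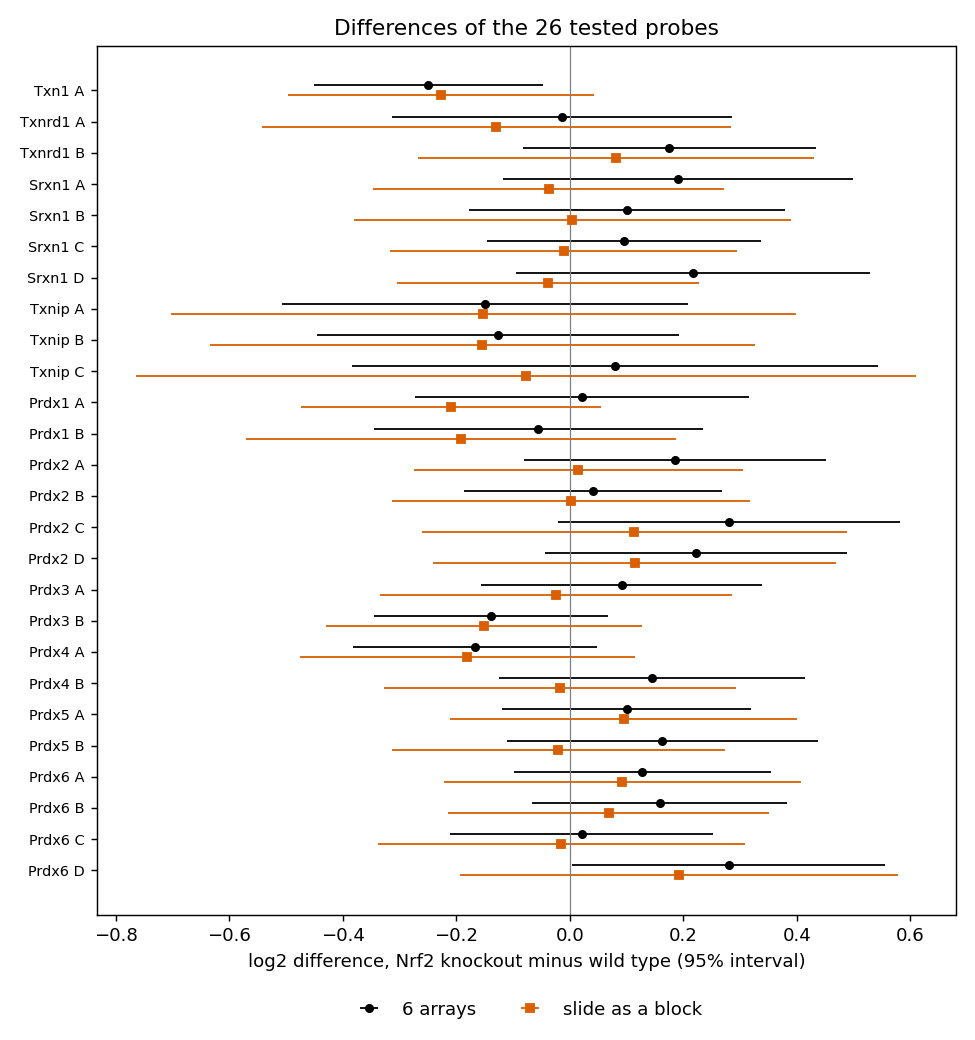
Log2 difference of each of the 26 tested probes, Nrf2 knockout minus wild type, with its 95% interval, from all 6 arrays (black) and with slide as a block (orange). Txn1 and Prdx6 probe D are the ones whose black interval leaves out 0, neither passes after adjustment, and every orange interval includes 0.

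The wider pathway was read from 39 other genes, at the brightest tested probe of each, all of which were tested. They comprised mitochondrial thioredoxin and its reductase, glutaredoxins, thioredoxin-like proteins, sestrins, methionine sulfoxide reductases, endoplasmic reticulum oxidoreductases, arrestins related to Txnip and its glucose-sensing regulators. None passed (0 higher and 0 lower in limma, against 0.0167% of 17972 genes), 1 had an unadjusted p under 0.05 (12.4% of all genes), and 19 lay above 0 and 20 below. The median difference was -0.00096, against -0.0052 over all genes, and 5 of the 39 (12.8%) did not overlap between the groups, against 19.4% of all genes.

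Of those 5, Map3k5, the stress kinase ASK1 that reduced thioredoxin holds inactive, measured 1.86, 1.85 and 1.98 in the knockout samples, against 1.74, 1.65 and 1.68 in wild type (difference 0.21, SE 0.087, limma adjusted p = 0.332). Its second probe did not overlap either, at 0.13 (SE 0.09), and probe C did, at 0.091. Txnrd3, a reductase best known from testis, gave 0.14 (SE 0.091), with 0.048 (SE 0.089) at its other probe, where the groups overlapped. On the lower side, Txnl1, a thioredoxin-like protein of the proteasome, gave -0.14 (SE 0.099), with -0.035 and 0.062 at its other probes. P4hb, a protein disulphide isomerase, gave -0.089 (SE 0.08), with 0.067 at its other probe.

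At the brightest probe of each gene, the largest differences were those of Arrdc1 and Sesn2, and in both knockouts 2 and 3, on slide 2, were the lowest samples. Among dimmer probes, Glrx2 C gave -1.17 (SE 0.51) with overlap, and Mlxipl B and Glrx2 D gave -0.87 (SE 0.27) and -0.81 (SE 0.27) without it. At Glrx2 C, knockout 1 measured 0.48, within the wild type range, and knockouts 2 and 3 measured -1.59 and -1.21. At Mlxipl B, knockout 1 (-3.24) lay just below wild type 1 (-3.23). At Glrx2 D, knockouts 2 and 3 measured -5.64 and -5.81. The lowest signals well above background on those 2 arrays were -5.07 and -5.05. These 3 probes were chosen after their values were seen, and none passed (lowest limma adjusted p = 0.307). Arrdc1, an alpha-arrestin related to Txnip, measured 2.02, 1.21 and 1.14 in the knockout samples, against 2.24, 2.13 and 2.33 in wild type. The difference was -0.78 (SE 0.24, limma adjusted p = 0.307), and -0.22 (SE 0.12) with slide as a block. Its second probe gave 0.12 (SE 0.12). Sesn2, a stress-induced sestrin and a known Nrf2 target, measured 4.05, 2.97 and 2.96 in the knockout samples, against 3.95 and 4.08 in wild types 2 and 3. Wild type 1 was dropped there for an outlier flag. The difference was -0.69 (SE 0.36, limma adjusted p = 0.386), and 0.030 with slide as a block. The second Sesn2 probe, a dimmer one, gave -0.096 (SE 0.15), with overlapping groups. Without knockout 1, the brightest probes of Arrdc1 and Sesn2 gave -1.06 and -1.05 (limma adjusted p = 0.00405 and 0.00866). In that fit limma called 13562 of all 105930 tested probes, and slide and genotype cannot be told apart.

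**Figure D4:**
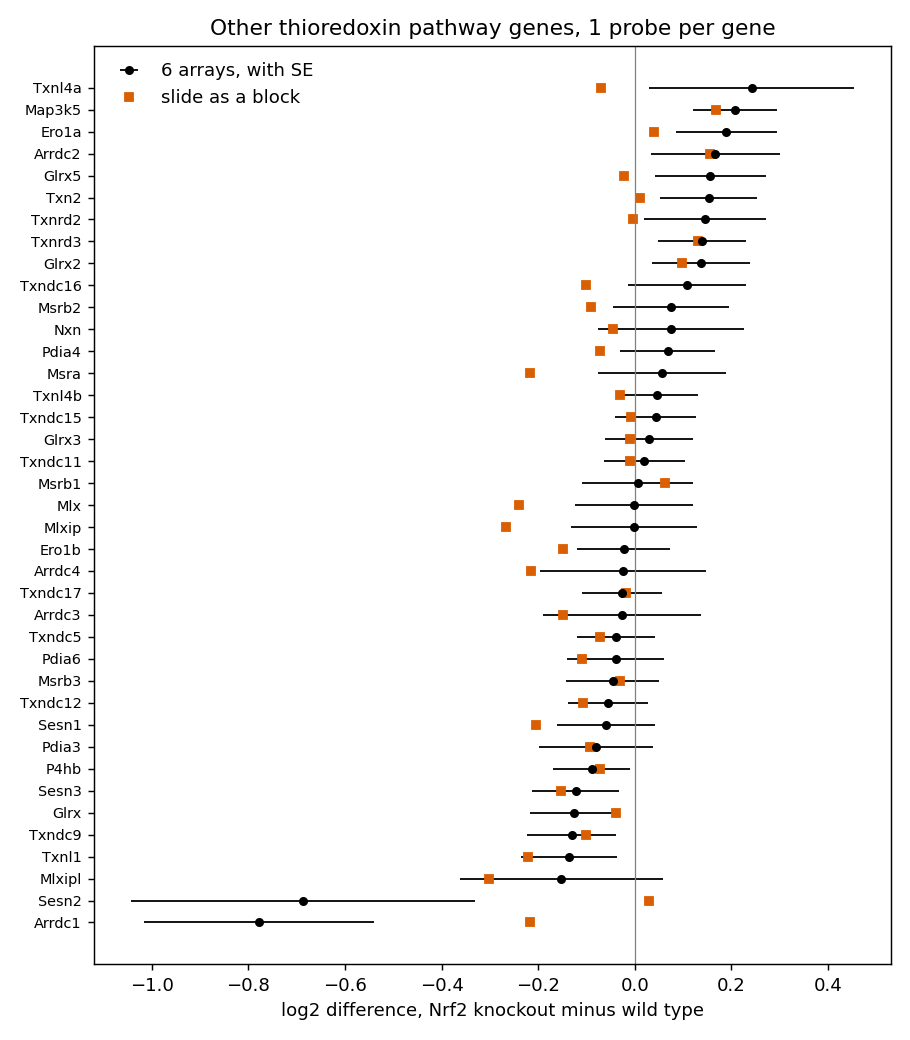
Log2 difference, Nrf2 knockout minus wild type, for 39 other genes of the pathway at 1 probe each, with its SE (black), and the same with slide as a block (orange). The black points centre near 0, and for Sesn2 and Arrdc1, the lowest of them, the orange points lie far closer to 0.

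Likeness across the 6 arrays was read over 6 points and 17968 genes, where high values arise readily, and is given as a description. The brightest Txn1 probe had its closest matches in Lifr (Pearson's r = 0.996) and Olfr1410 (r = 0.991), and that of Srxn1 in Scrn3 (r = 0.998) and Ckb (r = 0.994). Within the set, the brightest probes of Srxn1 and Prdx3 ran together (r = 0.943), as did those of Prdx5 and Prdx6 (r = 0.94) and of Srxn1 and Prdx2 (r = 0.899), while Txn1 was closest to Prdx4 (r = 0.85). The arrays share 2 slides, and the part of the slide in these values was not tested.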

How the data were processed

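RNA was measured on 6 one-colour Agilent arrays, 1 per sample. Per the file headers, the deposited intensity values were made by the authors with Agilent Feature Extraction 12.0.3.1, which subtracted background, and probe positions are on mm9. Per the submitters' processing notes, version 10.7 of it and limma were used. The deposited table of log2 values, used as an alternative, is close to quantile normalization by comparison with the scanner values, and its steps are not stated.

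From these, log2 processed signals, less each array's 75th percentile, were fitted with limma 3.58.1 (R 4.3.3), knockout minus wild type, on all 6 arrays. A probe was tested if well above background on all 3 arrays of at least 1 group, and p-values were adjusted by Benjamini-Hochberg over 105930 probes, two-sided, with a threshold of 0.05. Control spots and spots flagged as outliers were left out. Precision is limited by the number of arrays. Slides were read from the names of the deposited array files. Every probe of the 10 genes was accounted for, and of the other pathway genes those without overlap and the 2 with the largest differences were named. Genes and lists were chosen with earlier results of these data known. The scripts were tested on simulated data. The labels do not say whether replicate numbers pair the samples, and the main fit did not use them. Alternatives covered background correction, scaling, filter, slide, replicate block, variance model and leaving out each array.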

Additional observations from a re-analysis of the deposited data

How the results depend on the processing

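Over 17 alternatives, limma called 0 of the 26 probes in each, with a lowest adjusted p of 0.0562 (Srxn1 probe D without knockout 1). The number of all probes called was 10, against 17 with normexp scaled to the 75th percentile, 23 with an intensity trend, and 4 with probes well above background on all 6 arrays or on slide 1 alone. Leaving out 1 array gave 5 to 13562 calls, the highest without knockout 1, where slide and genotype cannot be told apart, and 0 to 2 calls among the 39 pathway genes. The median difference of the 26 probes was 0.098, and 0.069 to 0.15 on leaving out 1 array. With 1 probe per gene it was 0.056. Over the 26 probes it was -0.019 with slide as a block and on slide 1 alone.

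The sign turned with slide as a block, and by the same values on slide 1 alone, for Srxn1 A (-0.037), C (-0.010) and D (-0.038), Txnip C (-0.076), Prdx1 A (-0.21), Prdx3 A (-0.024), Prdx4 B (-0.017), Prdx5 B (-0.020) and Prdx6 C (-0.015). It also turned for Prdx6 C with normexp scaled to the 75th percentile (-0.0020), and for Txnrd1 A with median scaling (0.038) and in the authors' deposited log2 table (0.00049). Leaving out 1 array gave -0.12 to 0.063 for Txnrd1 A, -0.23 to 0.0019 for Txnip B, -0.089 to 0.26 for Txnip C and -0.047 to 0.14 for Prdx1 A. It gave -0.12 to 0.033 for Prdx1 B, -0.021 to 0.093 for Prdx2 B and -0.017 to 0.091 for Prdx6 C. Beyond the change of samples, the cause was not tested.

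Deviations of samples with the same replicate number correlated at -0.013, -0.050 and 0.038. The knockout samples are split over slides 1 and 2 and the wild type samples share slide 1. These values therefore cannot settle whether the numbers pair the samples. The fit with a replicate block called 2 of all probes and 0 of the 26.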
